A study of Mus musculus with 15 samples.

Results

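The chemokine genes of mouse lung were examined in a model of allergic asthma, with and without ginsenoside Rg3, a saponin of ginseng. They were taken from the rows of the expression table whose gene symbol begins with Ccl, Cxcl, Cx3cl, Ccr, Cxcr, Cx3cr or Ackr followed by a number. The 50 genes described, of 14766 in the table, comprise 34 ligand rows and 16 receptors. The 50 rows carry 48 symbols, because Ccl21a and Ccl27a each have a row on chromosome 4 and another on the unplaced scaffold JH584294.1. Polyadenylated RNA of whole lung was sequenced from 15 wild-type samples, 5 in each of 3 groups. The control group was given saline and neither ovalbumin (OVA, an egg-white protein) nor Rg3. OVA mice were sensitised by injection into the peritoneum and challenged by aerosol, without Rg3. OVA_Rg3 mice had the same OVA induction together with Rg3 at 20 mg/kg by gavage. Age, sex, strain background and the number and spacing of the OVA doses are not given in the sources used here, and all samples carry the same batch label.

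Chemokines are small secreted proteins that direct the migration of leukocytes through receptors coupled to inhibitory G proteins. CC, CXC and CX3C ligands are named for the spacing of their conserved cysteines, and atypical receptors take up ligands without G-protein signalling. In allergic airways, eotaxins are known to draw eosinophils, and other CC ligands draw monocytes, macrophages, dendritic cells and helper T cells. Several CXC ligands, among them Cxcl15 and Cxcl17, are products of the airway epithelium in the resting lung.

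Of 24 ligand rows tested, 6 CC ligands were higher and 1 CXC ligand was lower in OVA lungs than in control lungs. Over all genes tested, 6.32% rose and 8.39% fell. None of the 8 receptors tested passed the test, and another 8 were not tested. Ccl6, Ccl9, Ccl8, Ccl3, Ccl11 and Ccl24 rose and Cxcl17 fell, of which the Ccl24 call depended on single libraries. Without the scaling described below, the calls of Ccl9, Ccl8, Ccl11 and Ccl24 were lost, and those of Ccl6, Ccl3 and Cxcl17 stayed. Of the 6 ligands that rose, 5 lie in the CC chemokine clusters of chromosome 11, and Ccl24 lies on chromosome 5. Of all 22 CC ligand rows, tested or not, 10 lie on chromosome 11, and whether the rise was concentrated there was not tested. OVA_Rg3 lungs did not differ from OVA lungs at the threshold in any gene. Against control lungs they had higher Ccl6 and Ccl11 and lower Ccl20, where 2.98% of all genes rose and 4.75% fell. The Ccl20 call too depended on single libraries.

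Ccl6 and Ccl9 are neighbouring genes on the minus strand of chromosome 11 that rose in OVA lungs. Their promoters are shown because they share a stretch of sequence, which spans the start site in Ccl6 and lies after it in Ccl9. Promoters were read from RefSeq (GRCm38.p6), from 250 bases before to 50 after each start, and 36 of the 48 symbols had an entry, with 40 promoters in all. Among all 630 pairs of these 36 genes, Ccl6 and Ccl9 had the best-scoring ungapped match, with 36 of 40 bases identical. The capitals mark that stretch, from -25 to 15 in Ccl6 and from 10 to 49 in Ccl9, counted from the start site at 1 with no position 0. The Ccl6 window is chr11:83593038-83593337 and the Ccl9 window is chr11:83578587-83578886, both on the minus strand.
Ccl6: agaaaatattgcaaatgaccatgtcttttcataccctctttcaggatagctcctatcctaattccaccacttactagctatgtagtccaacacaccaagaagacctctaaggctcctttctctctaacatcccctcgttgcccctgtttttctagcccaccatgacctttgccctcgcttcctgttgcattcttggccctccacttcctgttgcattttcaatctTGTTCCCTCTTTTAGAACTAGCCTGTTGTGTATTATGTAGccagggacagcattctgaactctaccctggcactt
Ccl9: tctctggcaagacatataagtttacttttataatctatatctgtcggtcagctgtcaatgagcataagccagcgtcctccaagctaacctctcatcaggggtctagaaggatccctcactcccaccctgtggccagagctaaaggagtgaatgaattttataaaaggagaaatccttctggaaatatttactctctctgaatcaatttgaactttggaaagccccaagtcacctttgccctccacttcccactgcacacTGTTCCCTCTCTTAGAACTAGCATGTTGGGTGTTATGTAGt
Ccl8 is shown as a risen ligand from the other cluster of chromosome 11, and Ccl17 as a ligand known in allergy that did not pass the test. In Ccl8 (chr11:82114935-82115234, plus strand) the capitals mark a TATAAA box at -32 to -27. In Ccl17 (chr8:94810203-94810502, plus strand) they mark TTC and GAA set 4 bases apart, the spacing that Stat6 is known to prefer, at -154 to -145.
Ccl8: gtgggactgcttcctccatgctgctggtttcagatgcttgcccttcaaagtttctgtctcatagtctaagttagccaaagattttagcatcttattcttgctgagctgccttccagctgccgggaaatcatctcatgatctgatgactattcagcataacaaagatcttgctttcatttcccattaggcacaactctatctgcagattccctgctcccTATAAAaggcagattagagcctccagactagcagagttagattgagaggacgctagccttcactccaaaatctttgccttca
Ccl17: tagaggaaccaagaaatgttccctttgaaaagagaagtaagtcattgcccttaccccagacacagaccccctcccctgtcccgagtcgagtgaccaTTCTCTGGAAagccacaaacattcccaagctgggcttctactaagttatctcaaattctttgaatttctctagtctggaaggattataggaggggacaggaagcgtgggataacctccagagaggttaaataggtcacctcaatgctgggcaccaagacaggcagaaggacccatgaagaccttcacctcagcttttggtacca
Searched on both strands, TATAAA was present in 11 of 40 chemokine promoters and in 13.6% of all 32851 promoters. TTC and GAA set 4 bases apart, a motif that is symmetric between strands, was present in 1 of 40, that of Ccl17, and in 6.95% of all promoters. TGANTCA, likewise symmetric and bound by AP-1 factors, was present in 5 of 40, among them Ccl9, and in 7.81% of all. Matches of letters are a description of the sequence and were not tested for binding.

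Levels are the authors' deposited values, taken as FPKM (fragments per kilobase of exon, scaled to the size of the library), divided here by a scale factor per library. The factor is the median over genes of the ratio to the geometric mean of all libraries. Before scaling, the median gene differed by -0.73 on the log2 scale between OVA and control, and after scaling by -0.02, so each difference is relative to the median gene. Mitochondrial genes held 18.9% to 29.3% of the summed values in control libraries, 46.2% to 79.8% in OVA and 41.6% to 70.4% in OVA_Rg3. The depth estimated from the steps between low values ran from 0.217 M reads in OVA_Rg3 1 and 0.832 M in control 2 to 9.02 M in control 1. Lung epithelial markers were high in all 15 libraries, but control 2, OVA 4 and OVA_Rg3 1 also carried transcripts of other organs. The summed level of 6 liver genes was 322, 334 and 1429 FPKM in these 3 libraries, 99.2 in OVA_Rg3 5 and at most 13.6 in the other 11. Results are therefore also given without control 2, OVA 4 and OVA_Rg3 1. In bulk lung, fewer cells of a type and less RNA per cell cannot be told apart.

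**Figure D1:**
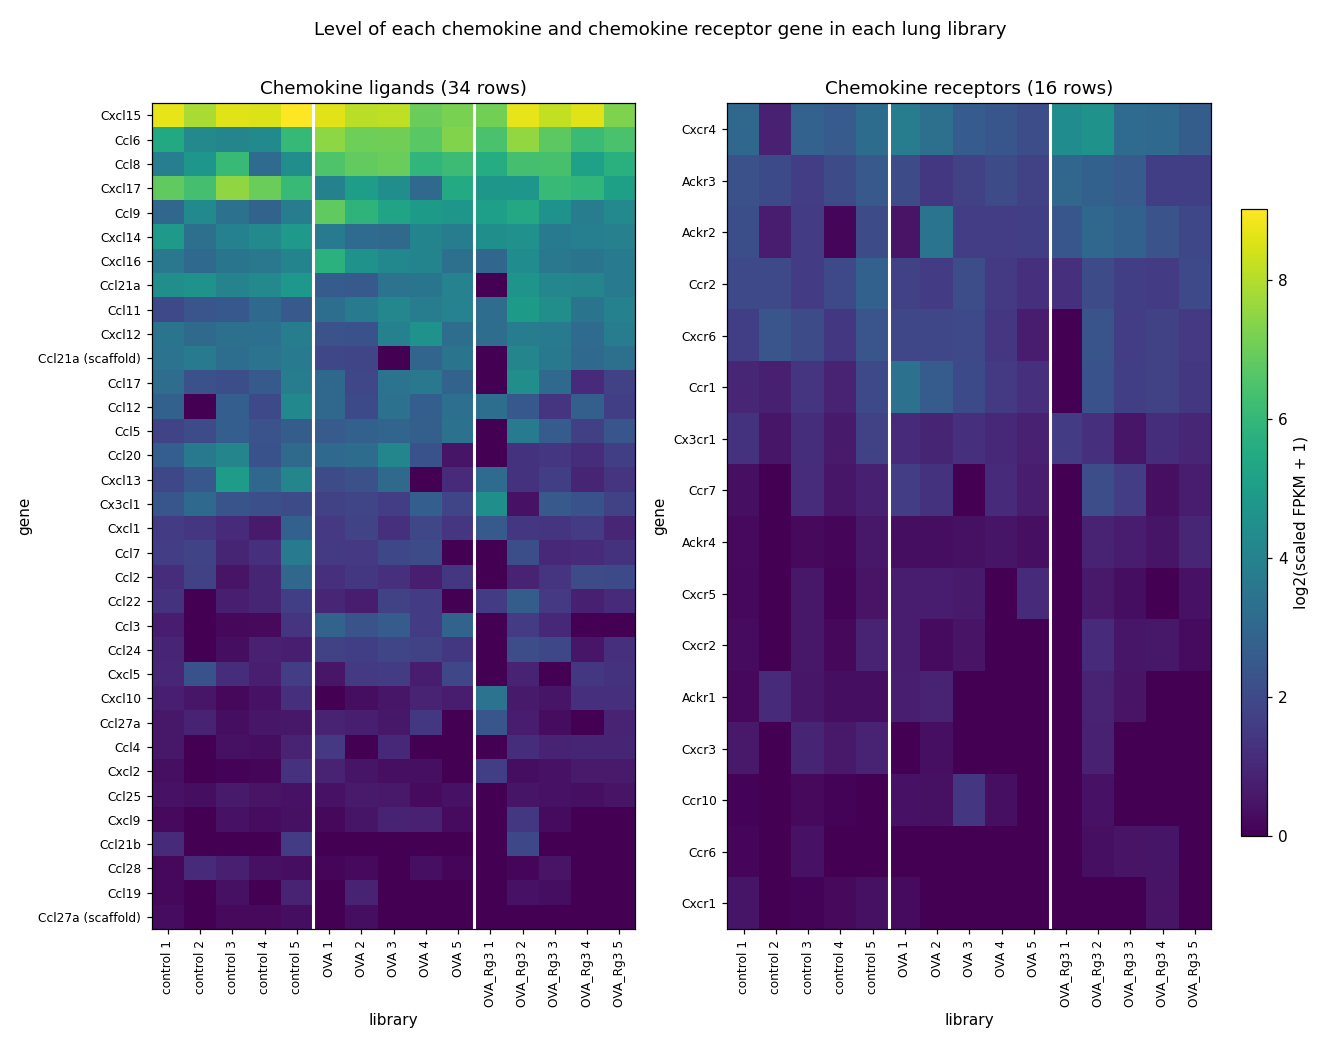
Heat map of all 34 ligand rows and 16 receptor rows, with libraries on the x axis by group, genes on the y axis in order of mean level, and colour giving log2(scaled FPKM + 1). Cxcl15 is the brightest ligand row by mean level in every group, and Cxcr4 is the receptor row with the highest mean in each.

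Most of the summed ligand level came from a few genes. Cxcl15, a CXC ligand of mouse airway epithelium, made up 54.1% ± 5.52 (SD, n = 5) of the summed level of the 34 ligand rows in control lungs, 34.5% ± 7.50 in OVA lungs and 41.9% ± 10.6 in OVA_Rg3 lungs. Cxcl17 followed in control lungs with 16.5% ± 5.92, against 3.72% ± 2.65 in OVA and 7.14% ± 2.88 in OVA_Rg3. Ccl6 held 4.40% ± 2.22 of the control sum and 21.2% ± 4.24 of the OVA sum, so that it moved from the third to the second place among ligands. The 22 CC ligand rows together made up 14.1% to 26.4% of the sum in control libraries, 47.6% to 58.9% in OVA and 25.7% to 47.4% in OVA_Rg3. Control and OVA were well apart, and the highest OVA_Rg3 library fell just below the lowest OVA library and the lowest just below the highest control library. The 10 CC ligands of chromosome 11 held 7.81% to 16.7%, 44.6% to 52.8% and 21.5% to 41.9% in the same order. These shares do not depend on the scale factor, they were chosen after the values were seen, and no test is given. The summed level itself was 702 ± 152 FPKM in control, 676 ± 178 in OVA and 632 ± 208 in OVA_Rg3 lungs, ranges that overlap.

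**Figure D2:**
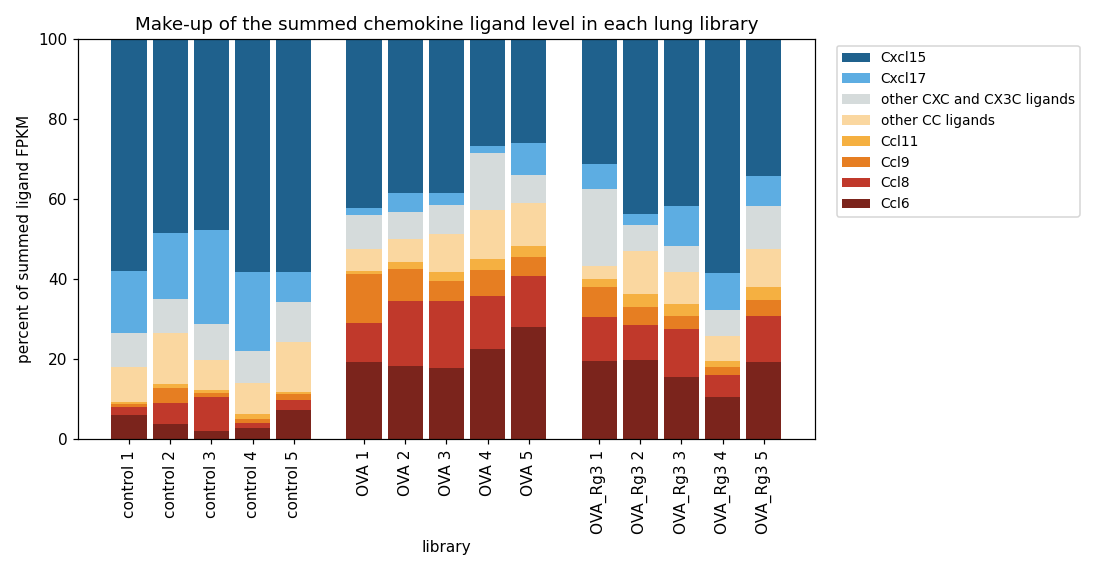
Stacked bars of the make-up of the summed ligand FPKM in each of the 15 libraries, in percent. CC ligands, in red to yellow, reach 47.6% or more in every OVA library and at most 26.4% in every control library, and OVA_Rg3 libraries lie between 25.7% and 47.4%.

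The question put to OVA against control is which chemokine genes differ in the allergic lung. Differences were tested with limma on log2(scaled FPKM + 1) over 12137 genes that reached 1 FPKM in 5 or more libraries, with Benjamini-Hochberg adjustment over all of them. A fold change on this scale understates the change of low genes. The filter kept 24 ligand rows and 8 receptors and left out 10 ligand rows and 8 receptors. An adjusted p under 0.05 counted as a call. Of the 24 ligand rows, 6 rose and 1 fell. Over all genes tested, 6.32% rose and 8.39% fell. The median log2 difference was -0.02 over the ligand rows, as over all genes, with 12 rows above 0 and 12 below. With the values as deposited, without scaling, 2 of 24 ligand rows rose and 7 fell, in a setting where 70 of all 12137 genes rose and 6216 fell. Groups did not overlap for 5 ligand rows that were higher in OVA and 2 that were lower, against 7.00% and 9.24% of all genes.

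Ccl6 and Ccl9 are CC ligands of mouse myeloid cells that act on Ccr1. Ccl6 was 43.2, 18.0, 16.2, 18.3 and 65.2 FPKM in the control libraries, 177, 128, 132, 103 and 156 in OVA, and 85.1, 187, 107, 69.2 and 85.2 in OVA_Rg3. Every OVA and OVA_Rg3 library lay above every control library. The log2 difference of OVA against control was 2.28 ± 0.36 (SE, limma adjusted p = 0.00160). Ccl9 was 6.83, 19.0, 9.22, 6.26 and 13.2 FPKM in control, 111, 56.8, 37.6, 29.3 and 26.2 in OVA, and 33.0, 42.4, 23.0, 12.6 and 17.8 in OVA_Rg3. OVA libraries were all above control, whereas OVA_Rg3 overlapped both groups. Its difference between OVA and control was 2.06 ± 0.41 on the log2 scale (limma adjusted p = 0.00505), and 1.15 with an adjusted p of 0.0767 with the values as deposited.

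Ccl3, an inflammatory ligand of Ccr1, was low in all groups. It was 0.653, 0, 0.138, 0.160 and 1.57 FPKM in control, 6.38, 3.91, 5.16, 1.94 and 6.27 in OVA, and 0, 1.95, 1.01, 0 and 0 in OVA_Rg3. OVA and control did not overlap as listed, and only the highest OVA_Rg3 library reached the lowest OVA library. A floor of 3 reads in control 2, listed at 0, would be 4.08 FPKM, above the OVA values of 3.91 and 1.94. The difference of OVA against control was 1.95 ± 0.36 on the log2 scale (limma adjusted p = 0.00363). Ccl3 met the filter through its OVA libraries, the group where it was high, all at 1.08 FPKM or more as deposited. With no filter the difference was also 1.95 (limma adjusted p = 0.00481). At the estimated depths the OVA values stand for 2.99 to 15.6 reads per library. Among the 3 OVA_Rg3 libraries listed at 0, a floor of 3 reads would be 17.9 FPKM in OVA_Rg3 1 and 2.33 in each of the other 2, for counting error only, so the 0 in OVA_Rg3 1 sets no useful limit.

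Ccl8, known in the mouse as a ligand of Ccr8 on type 2 helper T cells, had its highest control library above the lowest OVA library. Its values were 13.6, 25.8, 66.1, 7.97 and 21.1 FPKM in control, 90.6, 114, 125, 60.6 and 71.3 in OVA, and 46.8, 81.8, 82.0, 34.7 and 51.5 in OVA_Rg3. The log2 difference of OVA against control was 2.03 ± 0.43 (limma adjusted p = 0.00652), and 1.09 with an adjusted p of 0.0670 as deposited. Ccr8 itself was not analysed here.

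The eotaxins Ccl11 and Ccl24 attract eosinophils through Ccr3, which was not analysed here. Ccl11 was 2.98, 4.20, 4.56, 7.37 and 4.72 FPKM in control, 8.49, 11.9, 16.9, 12.95 and 14.9 in OVA, and 8.33, 29.3, 20.9, 10.2 and 14.6 in OVA_Rg3. Both OVA groups lay wholly above control, but the Ccl11 value of OVA_Rg3 1 stands for only 1.97 reads. A floor of 3 reads in that library would be 12.7 FPKM, above every control value. The OVA difference was 1.29 ± 0.30 on the log2 scale (limma adjusted p = 0.0107), and as deposited it was 0.44 with an adjusted p of 0.291. Ccl24 was 0.888, 0, 0.247, 0.791 and 0.700 FPKM in control, 2.44, 2.20, 2.70, 2.41 and 1.78 in OVA, and 0, 3.41, 2.87, 0.461 and 1.31 in OVA_Rg3. Its OVA libraries were close together and above all control libraries as listed, while OVA_Rg3 spanned both. A floor of 3 reads in control 2, listed at 0, would be 2.41 FPKM, within the range of the OVA values. The OVA difference of Ccl24 was 1.15 ± 0.34 (limma adjusted p = 0.0342), and the call was lost when control 2, 3 or 4 or any OVA library was left out, with log2 differences of 1.01 to 1.22 and adjusted p from 0.0535 to 0.0821. Of 8 eosinophil markers, 6 were in the table and 2, Ear1 and Ear2, were tested. Neither was called in OVA against control, and 1 of the 2 fell without control 2, OVA 4 and OVA_Rg3 1. The summed level of the 6 was 14.5 to 49.6 FPKM in control, 16.1 to 52.9 in OVA and 25.1 to 187 in OVA_Rg3, most of it from Ear1 and Ear2. Ear2 was called higher in OVA_Rg3 than in control (limma adjusted p = 0.0473), a call lost as deposited, with quantile normalization, with scaling over genes of at least 5 FPKM and without those 3 libraries. Ear2 is also on the list of alveolar macrophage markers, of which Chil3 and Atp6v0d2 also rose and Plet1 fell in OVA_Rg3 against control. Over all genes, 2.98% rose and 4.75% fell in that comparison. Prg2, a granule protein that defines eosinophils, was at 0 in 4 of 5 control, 4 of 5 OVA and 3 of 5 OVA_Rg3 libraries.

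Cxcl17, a mucosal chemokine of airway epithelium, was the only ligand that fell in this fit. It was 111, 80.5, 185, 125 and 66.2 FPKM in control, 14.7, 32.4, 21.1, 7.53 and 44.2 in OVA, and 26.4, 25.7, 68.6, 60.5 and 34.0 in OVA_Rg3. All OVA libraries lay below all control libraries, and 4 of 5 OVA_Rg3 libraries did. The difference of OVA against control was -2.33 ± 0.42 on the log2 scale (limma adjusted p = 0.00333). Among airway epithelial markers, 4 of 6 club cell genes and 5 of 6 ciliated cell genes fell in the same comparison. Over all genes tested, 8.39% fell. The summed club cell level was 44730 to 194103 FPKM in control, 23707 to 66544 in OVA and 16328 to 44622 in OVA_Rg3. The summed ciliated cell level was 330 to 746, 90.0 to 306 and 86.7 to 264 FPKM in the same order. Their part in the Cxcl17 result was not tested.

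**Figure D3:**
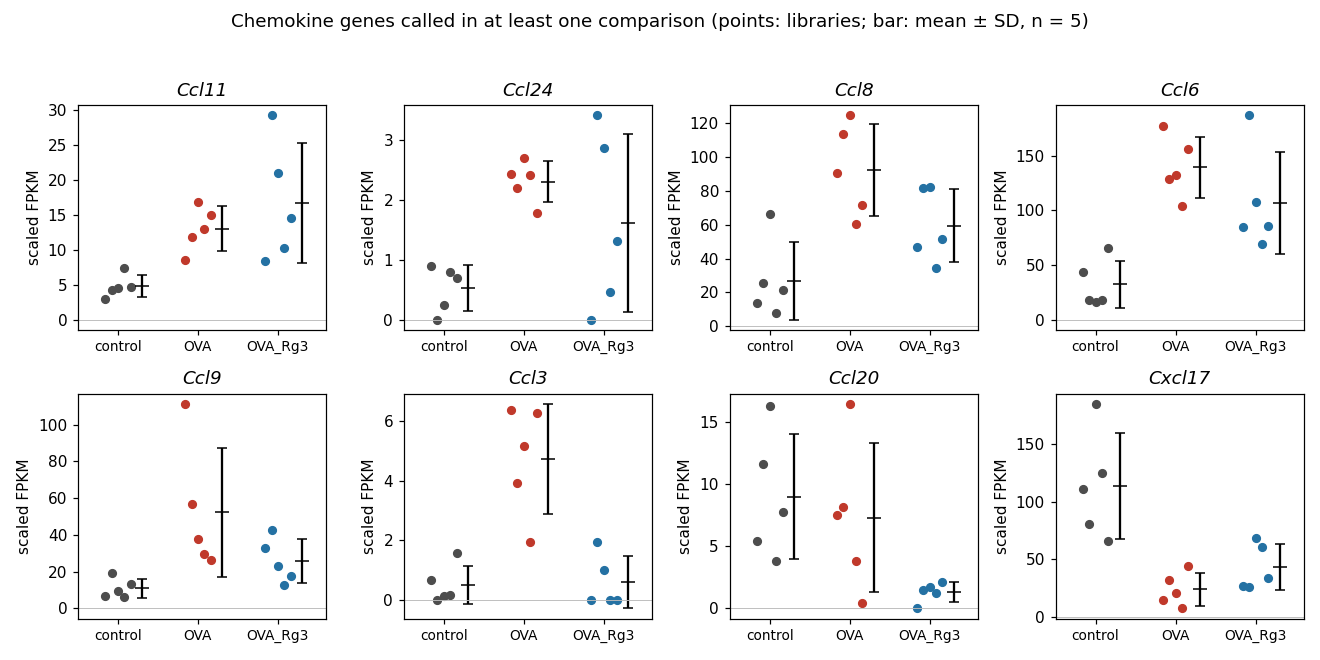
Scaled FPKM of the 8 chemokine genes called in at least 1 comparison, with each point a library and the bar beside it the group mean ± SD (n = 5). Ccl6, Ccl9, Ccl3, Ccl11 and Ccl24 have all OVA points above all control points, Cxcl17 has all OVA points below them, and Ccl20 has all OVA_Rg3 points below the control points.

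Without control 2, OVA 4 and OVA_Rg3 1, the same 6 ligands rose and Cxcl17 fell in OVA against control. Their log2 differences were then 2.24 for Ccl6, 2.42 for Ccl9, 2.04 for Ccl3, 2.23 for Ccl8, 1.26 for Ccl11, 0.99 for Ccl24 and -2.10 for Cxcl17. Cxcl14 and both rows of Ccl21a then fell too, where 1134 of all 12137 genes rose and 1434 fell. The macrophage markers moved with the risen ligands in part. Of 7 alveolar macrophage markers tested with all libraries, Chil3, Car4 and Atp6v0d2 rose and Plet1 fell, against 6.32% and 8.39% of all genes. The summed level of the 8 in the table was 79.3 to 162 FPKM in control, 374 to 1666 in OVA and 339 to 1224 in OVA_Rg3. Most of the OVA sum was Chil3, at 199 to 1418 FPKM, whereas Marco, a defining receptor of alveolar macrophages, was at 0 in all 5 OVA libraries. Marco reached 1 FPKM as deposited in fewer than 5 of the 15 libraries and was not tested, so these zeros do not show a fall. Of 8 markers of monocytes and interstitial macrophages, Ly6c2 and Ms4a7 rose and none fell, and their sums overlapped, at 61.9 to 105 FPKM in control and 70.1 to 126 in OVA. The part of these cells in the ligand results was not tested.

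The other CC ligands did not pass the test against control. Ccl17 and Ccl22 bind Ccr4, which was not analysed here. Ccl17 was 8.35, 3.70, 3.51, 4.89 and 12.9 FPKM in control, 7.13, 2.74, 9.83, 11.3 and 6.27 in OVA, and 0, 20.7, 7.53, 1.17 and 2.32 in OVA_Rg3, and all groups overlapped. Ccl22 had medians of 0.895, 0.948 and 1.84 FPKM in control, OVA and OVA_Rg3. The monocyte attractants Ccl2, Ccl7 and Ccl12, which lie in the same cluster as Ccl8 and Ccl11, had control medians of 1.26, 2.12 and 5.40 FPKM and OVA medians of 1.34, 1.86 and 7.25. Their receptor Ccr2 was 1.94 to 6.02 FPKM in control and 1.36 to 3.34 in OVA. So within the 82.0 Mb cluster of chromosome 11, Ccl8 and Ccl11 passed the test and their 3 neighbours did not. Ccl5, an attractant of T cells, was 2.58 to 5.55 FPKM in control and 5.07 to 9.23 in OVA, with 4 of 5 OVA libraries above all control libraries, and was not called (limma adjusted p = 0.482). Ccl4 was at 0 in 1 control and 3 OVA libraries and was not tested. Whether genes of a cluster differed from each other in their response was not tested.

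Ligands of lymphoid tissue were not called, though several were lower in OVA. Ccl21a, which guides Ccr7-bearing cells, was 21.1, 23.5, 15.5, 18.1 and 26.7 FPKM in control, 5.21, 4.90, 9.88, 10.4 and 14.8 in OVA, and 0, 24.6, 16.9, 16.3 and 12.4 in OVA_Rg3. Its control and OVA libraries did not overlap, yet the limma adjusted p was 0.244. The OVA_Rg3 1 library, at 0 with a 3-read floor of 15.8 FPKM, enters the shared spread, and without control 2, OVA 4 and OVA_Rg3 1 the difference was -1.23 ± 0.31 (limma adjusted p = 0.0174). The scaffold copy of Ccl21a gave -1.47 on the log2 scale (limma adjusted p = 0.169). Without OVA_Rg3 1 alone that row was called at the same difference (limma adjusted p = 0.0368). Because Ccl21a, its scaffold copy and Ccl21b are near-identical, reads may be split among them and each value is uncertain. Cxcl13, the B cell attractant of follicles, was 2.91, 4.40, 30.9, 7.13 and 16.4 FPKM in control, 3.24, 3.71, 7.74, 0 and 1.08 in OVA, and 7.99, 1.49, 2.21, 0.897 and 1.55 in OVA_Rg3. Its OVA difference of -1.61 ± 0.63 was not called (limma adjusted p = 0.101). Ccr7 was 0 to 1.22 FPKM in control and 0 to 2.13 in OVA, and Cxcr5, the receptor of Cxcl13, was at most 1.12 FPKM in any library.

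CXC ligands of neutrophils did not differ at the threshold with the scaling used. Cxcl15 was 414, 236, 377, 369 and 517 FPKM in control, 390, 270, 287, 123 and 145 in OVA, and 136, 412, 289, 380 and 152 in OVA_Rg3 (limma adjusted p = 0.205 for OVA against control). It was called lower in OVA as deposited (-1.71, limma adjusted p = 0.0123), with quantile normalization (-1.28, 0.0480) and with array weights (-0.77, 0.0481). It was the most abundant ligand by mean level in all 3 groups. Cxcl1 and Cxcl5 had control medians of 1.66 and 1.26 FPKM and OVA medians of 1.81 and 1.89, and Cxcl2 was too low to test. Their receptors Cxcr1 and Cxcr2 were at most 1.11 FPKM in any library. Cxcl9 and Cxcl10, the interferon-induced ligands of Cxcr3, were also too low to test, with medians under 0.5 FPKM in control and OVA, apart from Cxcl10 at 9.89 FPKM in OVA_Rg3 1. Cxcl14, an epithelial ligand, was 9.02 to 28.6 FPKM in control and 7.78 to 15.6 in OVA, a difference of -0.68 ± 0.30 (limma adjusted p = 0.137). It was called without control 2 alone, at -0.92 (limma adjusted p = 0.0351). Cxcl16, the membrane-bound ligand of Cxcr6, was 7.55 to 15.8 FPKM in control and 9.14 to 52.9 in OVA. Its difference of 0.82 ± 0.36 was not called (limma adjusted p = 0.144) and was -0.069 as deposited. Cxcl12, which retains cells through Cxcr4, had overlapping ranges of 7.64 to 13.2 and 3.82 to 23.7 FPKM, and the fractalkine gene Cx3cl1 had medians of 4.06 in control and 2.66 in OVA.

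None of the 8 receptors tested was called by limma in OVA against control, and 1, Ccr1, had an unadjusted p under 0.05. Ccr1, the receptor shared by Ccl3, Ccl6 and Ccl9, was 0.939, 0.734, 1.56, 0.876 and 2.96 FPKM in control, 9.41, 5.17, 3.04, 1.87 and 1.32 in OVA, and 0, 3.77, 2.16, 2.31 and 1.79 in OVA_Rg3. OVA was above all control libraries in 3 of 5, with a log2 difference of 0.95 ± 0.44 (limma adjusted p = 0.160). Cxcr4 was the most abundant receptor by mean level in each group, at 7.27, 0.754, 6.18, 5.07 and 8.06 FPKM in control, 12.9, 9.08, 5.19, 4.31 and 3.39 in OVA, and 19.9, 23.2, 7.80, 7.41 and 5.37 in OVA_Rg3. Cxcr6 and Cx3cr1 had medians of 3.25 and 1.26 FPKM in control and 2.82 and 1.01 in OVA. Of the atypical receptors, Ackr3, a scavenger of Cxcl12, was 2.15 to 4.70 FPKM in control and 1.78 to 3.21 in OVA, and Ackr2, a scavenger of inflammatory CC ligands, was 0.0975 to 3.46 and 0.390 to 10.1. Ackr1, Ackr4, Ccr6, Ccr10 and Cxcr3 had at most 1.69 FPKM in any library and were not tested.

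The comparison of OVA_Rg3 with OVA asks whether Rg3 changed the chemokine genes of the allergic lung. No member was called by limma in either direction, and over all 12137 genes 0% were called, with 1058 at an unadjusted p under 0.05 and a smallest adjusted p of 0.0770. Among the ligand rows 4 had an unadjusted p under 0.05, and among the receptors 0 did. No member had groups that did not overlap, against 0.346% of all genes higher and 0.923% lower in OVA_Rg3. Ccl3 was lower in OVA_Rg3 by -1.93 ± 0.36 on the log2 scale (limma adjusted p = 0.148), with 4 of 5 OVA_Rg3 libraries below every OVA library. The 3 libraries listed at 0 have floors of 17.9, 2.33 and 2.33 FPKM, which reach the lower OVA values. Ccl9 differed by -0.90 ± 0.41 (limma adjusted p = 0.566), and Cxcl17 by 0.92 ± 0.42 in the other direction (limma adjusted p = 0.566). Ccl20 differed by -1.52 ± 0.55 (limma adjusted p = 0.482). For Ccl11, the mean was 13.02 ± 3.17 FPKM in OVA and 16.7 ± 8.55 in OVA_Rg3, a log2 difference of 0.23 ± 0.30 (limma adjusted p = 0.836). A p that misses the threshold does not show that OVA and OVA_Rg3 lungs were alike.

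Against control, OVA_Rg3 lungs had 2 ligand rows that rose, Ccl6 and Ccl11, and 1 that fell, Ccl20, of 24 tested. Over all genes 2.98% rose and 4.75% fell. Groups did not overlap for these same 3 ligands, with Ccl11 in OVA_Rg3 1 resting on 1.97 reads, against 3.79% of all genes higher and 7.53% lower. This comparison shares its control libraries with that of OVA against control, so the values are set side by side only. Ccl6 differed from control by 1.83 ± 0.36 in OVA_Rg3 (limma adjusted p = 0.0121) and by 2.28 in OVA. Ccl11 differed by 1.52 ± 0.30 in OVA_Rg3 (limma adjusted p = 0.0117) and by 1.29 in OVA. Ccl8 and Ccl9 differed by 1.38 and 1.16 in OVA_Rg3 and were not called (limma adjusted p = 0.0591 and 0.0914). Ccl8 was called when control 3 or OVA_Rg3 4 was left out, at 1.78 and 1.55 (limma adjusted p = 0.0258 and 0.0472). Cxcl17 differed by -1.41 ± 0.42 and was not called (limma adjusted p = 0.0540), though leaving out control 5, OVA 4, OVA 5, OVA_Rg3 3 or OVA_Rg3 4 gave a call at -1.41 to -1.60, with limma adjusted p from 0.0357 to 0.0480. Ccl3 and Ccl24 differed by 0.02 and 0.60, and the sign for Ccl3 turned to -0.085 as deposited.

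Ccl20, the ligand of Ccr6 on dendritic cells and helper T cells, was 5.43, 11.6, 16.3, 3.78 and 7.78 FPKM in control, 7.53, 8.13, 16.5, 3.84 and 0.439 in OVA, and 0, 1.49, 1.72, 1.26 and 2.15 in OVA_Rg3. Every OVA_Rg3 library lay below every control library, and OVA overlapped both. The difference of OVA_Rg3 against control was -2.05 ± 0.55 on the log2 scale (limma adjusted p = 0.0355). The 0 in OVA_Rg3 1 has a 3-read floor of 9.66 FPKM, above 3 of the 5 control values. The call was lost without any of the 5 control libraries or without OVA_Rg3 1, 2 or 5, at -1.77 to -2.28 and limma adjusted p from 0.0538 to 0.101. Without control 2, OVA 4 and OVA_Rg3 1 it was -1.65 (limma adjusted p = 0.109), while Ccl6 and Ccl11 stayed called at 1.75 and 1.69, and Cxcl13 fell by 2.21. With all libraries, none of the 8 receptors was called, and 2 had an unadjusted p under 0.05, Ackr2 at 1.16 ± 0.48 and Cxcr4 at 1.08 ± 0.48 (limma adjusted p = 0.147 and 0.184).

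**Figure D4:**
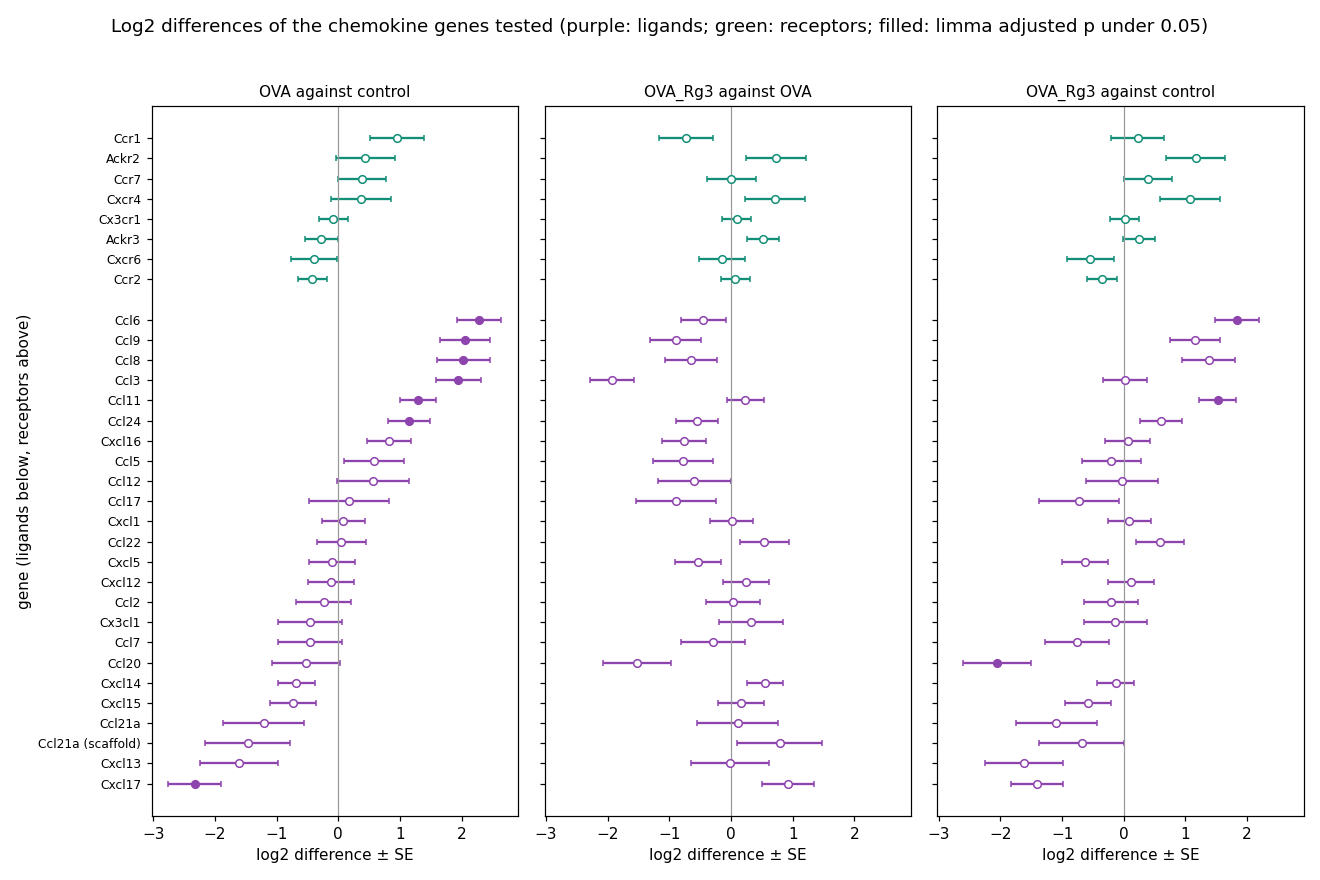
Log2 differences ± SE of the 24 ligand rows and 8 receptors tested, in 3 panels, of which the first sets OVA and the third OVA_Rg3 against control and the second sets OVA_Rg3 against OVA, with filled points for a limma adjusted p under 0.05. Filled points are 7 in the first panel, 0 in the second and 3 in the third, and no receptor point is filled.

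Genes that act with chemokines were taken from lists. These lists were chosen with earlier results of these data known, so their counts and medians are descriptive only. Of 10 chemokine family genes whose names fall outside the pattern, 8 were tested. Xcr1, the receptor of cross-presenting dendritic cells, fell from 1.03 ± 0.215 FPKM in control to 0.265 ± 0.139 in OVA, by 0.68 on the log2 scale (limma adjusted p = 0.0119). The platelet chemokines Pf4 and Ppbp, at 67.3 and 21.1 FPKM in control and 101 and 47.3 in OVA, were not called. In OVA_Rg3 against control, Xcr1 fell and Cd74, the receptor of Mif, rose, and neither was called without control 2, OVA 4 and OVA_Rg3 1. Of 24 genes of chemokine receptor signalling, 20 were tested, and 12 rose and 0 fell in OVA against control. Over all genes tested, 6.32% rose and 8.39% fell. The median of the 20 was 0.73 on the log2 scale, against -0.02 over all genes. As deposited, 0 of the 20 rose and 2 fell, where 70 of all 12137 genes rose and 6216 fell. Their median was then 0.13, against -0.73 over all genes. Among leukocyte markers, Cd79a and Pax5 of 6 B cell genes and Cd2 of 5 T cell genes tested rose in OVA against control, and as deposited none did. The summed B cell level was 4.09 to 19.6 FPKM in control, 19.9 to 47.9 in OVA and 8.45 to 40.2 in OVA_Rg3, and the summed T cell level was 7.44 to 14.7, 13.6 to 23.4 and 10.3 to 38.4. Their part in the signalling genes was not tested. Gng2, a G-protein subunit, went from 4.10 ± 0.791 FPKM in control to 11.4 ± 3.08 in OVA. Prex1, a Rac exchange factor, went from 1.17 ± 0.216 to 2.87 ± 0.612, and Coro1a, an actin regulator of leukocytes, from 7.11 ± 1.07 to 15.7 ± 2.35. In OVA_Rg3 against OVA 0 of the 20 signalling genes were called by limma. Against control 5 of them rose and 0 fell, where 2.98% of all genes rose and 4.75% fell. Of 23 cytokine and regulator genes upstream of chemokines, 15 were tested. Il33, an epithelial alarmin, rose from 6.44 ± 3.38 FPKM in control to 18.0 ± 5.36 in OVA, whereas Il13ra1 and Il1r1, receptors for interleukins, fell. The Il33 call was lost as deposited, where 0 of the 15 rose and 6 fell, against 70 and 6216 of all 12137 genes. In OVA_Rg3 against control 1 of the 15 fell, Il13ra1, a share near the 4.75% of all genes that fell.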

How the data were processed

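Whole-lung RNA of 15 mouse samples was sequenced after oligo(dT) selection, per the labels' protocols. The authors deposited a table of normalized expression per gene whose header names no unit. The deposited values were taken as FPKM from their size and steps, since they are not whole counts; TPM over a larger gene set cannot be told apart from it. The submitters' processing notes list featureCounts, Trimmomatic and the genome builds mm39 and GRCm39, without versions; the aligner is not given in the sources used here. Coordinates in the table match GRCm38 instead, with 13545 of 14756 gene IDs at the same position in a GRCm38 annotation, so positions are given as GRCm38. A single empty line of the table was not used.

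Libraries were scaled by the median ratio over 10246 genes, and log2(value + 1) was tested with limma 3.58.1 (R 4.3.3, trend and robust), with 1 mean per group over all 15 libraries. Genes needed a deposited value of at least 1 in 5 libraries. A count test planned for whole reads was not used, since the table holds no counts. Depth was estimated from steps between low values, of which 23.3% to 39.4% lay within 2% of a whole step, against 4% by even spacing; it is approximate. Tables and figures used Python 3.11.15, pandas 2.3.3 and matplotlib 3.10.9. The fit was tested on simulated data. Chemokine genes are named by their symbols, all 50 matched in the annotation, and 1 further gene that fits the naming rule is not reported here; the members and lists were chosen with earlier results of these data known. Alternatives were other scalings, filters, a pseudocount of 0.1, array weights, a replicate block and leaving out libraries. The labels call the samples biological replicates; p-values measure the spread between these samples. Exons of Ccl25, Ccl27a, Cxcl10, Cxcl16, Ackr1, Ackr4, Cx3cr1 and Cxcr5 overlap another gene, so their values may hold its reads where counting ignored strand; for Ackr1 the other gene is on the same strand.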

Additional observations from a re-analysis of the deposited data

Results flagged for a closer look

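Among 96 groups of 5 libraries checked, 1 for each of the 32 tested chemokine genes in each group, 10 had a library far from the other 4. Each flagged value lay above the others. Chance flags about 1 in 20 where values are normally distributed. The check used FPKM without logs, which need not be so distributed, so the 10 cannot be set against that rate. OVA_Rg3 1, the library with the lowest estimated depth and the most liver transcript, stood apart for Cx3cl1 at 21.4 FPKM, Cxcl13 at 7.99 and Cxcl1 at 4.91. The Cxcl13 value stands for 2.01 reads at the estimated depth, under a 3-read floor of 11.9 FPKM. Control 2, which also carries liver transcript, stood apart for Cx3cl1 at 7.56 FPKM, and OVA 4 did for Cx3cl1 at 5.40. Cx3cl1 was thus highest, in each group, in the library with transcripts of other organs. Control 5 stood apart for Ccl7 at 12.1, Ccr2 at 6.02 and Cxcl1 at 5.94 FPKM, against at most 2.61, 2.97 and 1.99 in the other control libraries. Ackr2 was 10.1 FPKM in OVA 2 against at most 2.18 in the other OVA libraries. Ccl22 was 5.33 FPKM in OVA_Rg3 2 against at most 1.97 in the other OVA_Rg3 libraries.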

How the results depend on the processing

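Of 792 alternative values for 32 log2 differences, 725 kept their direction and side of the threshold, 32 gained a call, 25 lost one and 10 changed sign. In OVA against control, Ccl6 and Cxcl17 were called under all 25 alternatives, Ccl3 under all 24 in which it was tested, Ccl8, Ccl9 and Ccl11 under 24 of 25, and Ccl24 under 12 of 24. The Ccl24 call was lost as deposited (0.66, limma adjusted p = 0.159), with scaling over genes of at least 5 FPKM (1.01, 0.0595) and with a pseudocount of 0.1 (2.32, 0.0968), which also ended the Ccl20 call (-3.03, 0.0753). No member was called in OVA_Rg3 against OVA under any alternative. In OVA_Rg3 against control, Ccl6 and Ccl11 were called under all 25 and Ccl20 under 15. The number of ligand rows called was 12 with array weights in OVA against control, where 1553 of all 12137 genes rose and 1972 fell. In OVA_Rg3 against control it was 5 as deposited (94 and 1922 of all genes), 8 with array weights (1339 and 1758) and 5 with the replicate block (372 and 686). Receptors called in OVA against control numbered 2 as deposited, both lower, where 6216 of 12137 genes fell, and 1 with array weights, higher. Leaving out each library in turn gave 6 to 9 ligand rows in OVA against control. The 9 came without OVA_Rg3 1, where 1200 of all 12137 genes rose and 1605 fell, against 478 and 574 without control 3. In OVA_Rg3 against control it gave 2 to 5, the 5 without OVA_Rg3 4 (325 and 674 of all genes). In OVA_Rg3 against OVA it gave 0, and receptors numbered 0 throughout.

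Signs turned for 4 differences that were not called. Ccl3 in OVA_Rg3 against control (0.02) became -0.085 as deposited and -0.35 with a pseudocount of 0.1, and ranged from -0.24 to 0.23 when each library was left out, with a negative sign without control 2, 3 or 4 or OVA_Rg3 2 or 3. As deposited, Ccl6 in OVA_Rg3 against OVA (-0.45) became 0.035 and Cxcl16 in OVA against control (0.82) became -0.069. Ccl20 in OVA against control (-0.53) ranged from -0.90 to 0.0018 when each library was left out, the last without OVA 5. The cause was not tested. The labels do not say whether replicate numbers pair the samples. Of 15 same-number pairs, 5 correlated above 0.1 (range -0.39 to 0.34), which does not settle it. With the replicate block, 6 ligand rows were called in OVA against control, where 761 of all 12137 genes rose and 1022 fell. The Ccl24 call was then lost (limma adjusted p = 0.0634), and Ccl8 and Ccl9 were gained in OVA_Rg3 against control. The low depth of OVA_Rg3 1 and control 2 limits what a value of 0 in them shows.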
